A study of Mus musculus with 9 samples.

Results

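A set of 7 mature miRNAs from imprinted loci was followed through the mouse embryo libraries: both arms of miR-675 from H19, both arms of miR-483 from Igf2, and both arms of miR-296 with miR-298-5p from the Gnas locus. They were chosen by name, with earlier results of these libraries known, and make up 7 of the 986 miRNA rows used, so their levels and ratios are given as a description without a test. The small RNA came from embryos at embryonic day 9.5 (E9.5) from which heart and tail bud had been taken away. The miR-17~92 cluster differed between 8 genotypes, each with 1 library, and encodes miRNAs of 4 seed families. Wild type carried the full cluster. Mutants of a single family lacked miR-17 (Delta-17), miR-18 (Delta-18), miR-19 (Delta-19) or miR-92 (Delta-92). Delta-17,18 lacked miR-17 and miR-18, the genotype named 19-only lacked miR-17, miR-18 and miR-92, and Full-KO lacked the cluster. Each library was labelled female. The sources used here give neither the zygosity nor how many embryos went into a library. None of the 7 miRNAs lies in the cluster, so the 3 loci were left in place in every genotype.

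H19 and Igf2 are neighbours with opposite imprints: H19, a long non-coding RNA, is expressed from the maternal chromosome, and Igf2, a fetal growth factor, from the paternal one, under shared enhancers and a common imprinting control region. miR-675 is cut from H19 RNA itself and is known as a brake on placental growth, while miR-483 is carried in an intron of Igf2. The Gnas locus encodes the stimulatory G protein alpha subunit and several overlapping transcripts with maternal, paternal or biallelic expression. miR-296 and miR-298 come from the antisense side of that locus and are known as paternally expressed. miR-296 has been studied in blood vessel growth and in the control of pluripotency factors.

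The 4 hairpins are shown because each result below is read arm by arm, and because both arms of 1 hairpin often went separate ways. Sequences and positions were taken from RefSeq on GRCm38.p6, whereas mm9 is the build named in the submitters' processing notes. Mature arms are in capitals and the rest of the hairpin in lower case, with the 5p arm first.
Mir675 (chr7:142577064-142577147, minus strand): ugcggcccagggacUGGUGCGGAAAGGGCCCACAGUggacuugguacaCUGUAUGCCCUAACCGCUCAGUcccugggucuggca
Mir483 (chr7:142654924-142654996, minus strand): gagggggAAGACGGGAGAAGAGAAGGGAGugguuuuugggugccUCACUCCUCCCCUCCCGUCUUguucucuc
Mir296 (chr2:174267047-174267125, minus strand): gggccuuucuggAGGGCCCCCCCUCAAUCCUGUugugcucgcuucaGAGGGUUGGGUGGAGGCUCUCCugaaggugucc
Mir298 (chr2:174267504-174267585, minus strand): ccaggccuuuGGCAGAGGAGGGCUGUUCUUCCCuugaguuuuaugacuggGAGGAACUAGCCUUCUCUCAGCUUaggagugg

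In the GENCODE annotation of GRCm38, Mir675 lay within an exon of 3 H19 transcripts and in an intron of 1, on the same strand. Mir483 was intronic in all 7 Igf2 transcripts that span it, and in 1 transcript of Gm49394, a gene model that overlaps Igf2 on the same strand. Mir675 and Mir483 were 77.8 kb apart. Mir296 and Mir298 lay within no other annotated gene, 378 bases from each other, and 13.7 kb separated Mir298 from the nearer end of Nespas, the antisense transcript of the Gnas locus.

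All 7 members matched a RefSeq mature sequence by name, of between 21 and 23 bases. The seed (bases 2 to 8, which pair with targets) is in capitals, and the prefix mmu for mouse is left out in the rest of the text.
mmu-miR-675-5p: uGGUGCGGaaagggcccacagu
mmu-miR-675-3p: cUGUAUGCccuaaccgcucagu
mmu-miR-483-5p: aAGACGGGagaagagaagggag
mmu-miR-483-3p: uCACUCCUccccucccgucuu
mmu-miR-296-5p: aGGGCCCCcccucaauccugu
mmu-miR-296-3p: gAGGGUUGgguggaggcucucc
mmu-miR-298-5p: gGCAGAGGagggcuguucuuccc
No 2 members shared a seed, and no other mature miRNA among the 1679 RefSeq entries carried any of these 7 seeds. None of the mature sequences was found in another of the 1005 hairpins with up to 1 mismatch, and each member had a single row in the table. The arms differ in composition: miR-483-5p holds 11 G and 10 A among its 22 bases and no U, its partner miR-483-3p holds 12 C among 21, miR-296-5p has a run of 7 C, and miR-296-3p holds 11 G among 22. GC content ran from 54.5% in miR-675-3p and miR-483-5p to 68.2% in miR-296-3p.

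Levels are given in nRPM, the deposited normalised reads multiplied by a common factor that brings the average total of the 8 libraries to that of RPM values. The libraries held between 6570756 and 18486699 miRNA reads, and 1 read was worth between 0.0624 and 0.157 nRPM. No genotype had a replicate, so every difference is between single libraries, and the 95% intervals cover counting error only. Among markers of other cell types, 8 of 15 heart and skeletal muscle arms averaged 10 nRPM or more, and their sum ran from 2345 nRPM in Delta-17 to 6181 in Delta-17,18, so muscle miRNAs were present although the heart had been removed. Heart-specific miR-208a-3p ran from 6.26 nRPM in wild type to 175 in Delta-17,18. The blood list (7 of 9 arms at that level) summed to between 2112 and 4454 nRPM, the neural list (8 of 8 rows) to between 8251 and 10781, and endothelial miR-126 (2 of 2 arms) to between 7367 and 17549. miR-122-5p of liver and visceral endoderm stood at 69.3 to 271 nRPM. Delta-17 stood apart in the balance of hairpin arms, as described with the arm shares. The miR-290 cluster of early embryonic cells (11 of 14 arms) summed to between 1641 and 3212 nRPM.

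All 7 members averaged 10 nRPM or more over the 8 libraries, and 6 averaged 100 or more. miR-296-3p was the most abundant, at 3900 ± 1424 nRPM (SD over the 8 libraries), the 60th highest mean of all rows. It was followed by miR-483-3p at 536 ± 111, miR-298-5p at 450.1 ± 163, miR-296-5p at 180.4 ± 45.9, miR-483-5p at 120.2 ± 59.3 and miR-675-5p at 100.6 ± 34.8 nRPM. miR-675-3p was lowest at 30.6 ± 9.85 nRPM. These levels were not divided by length, since the mature forms differ by at most 2 bases, and how well each sequence is captured by the library protocol was not measured.

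**Figure D1:**
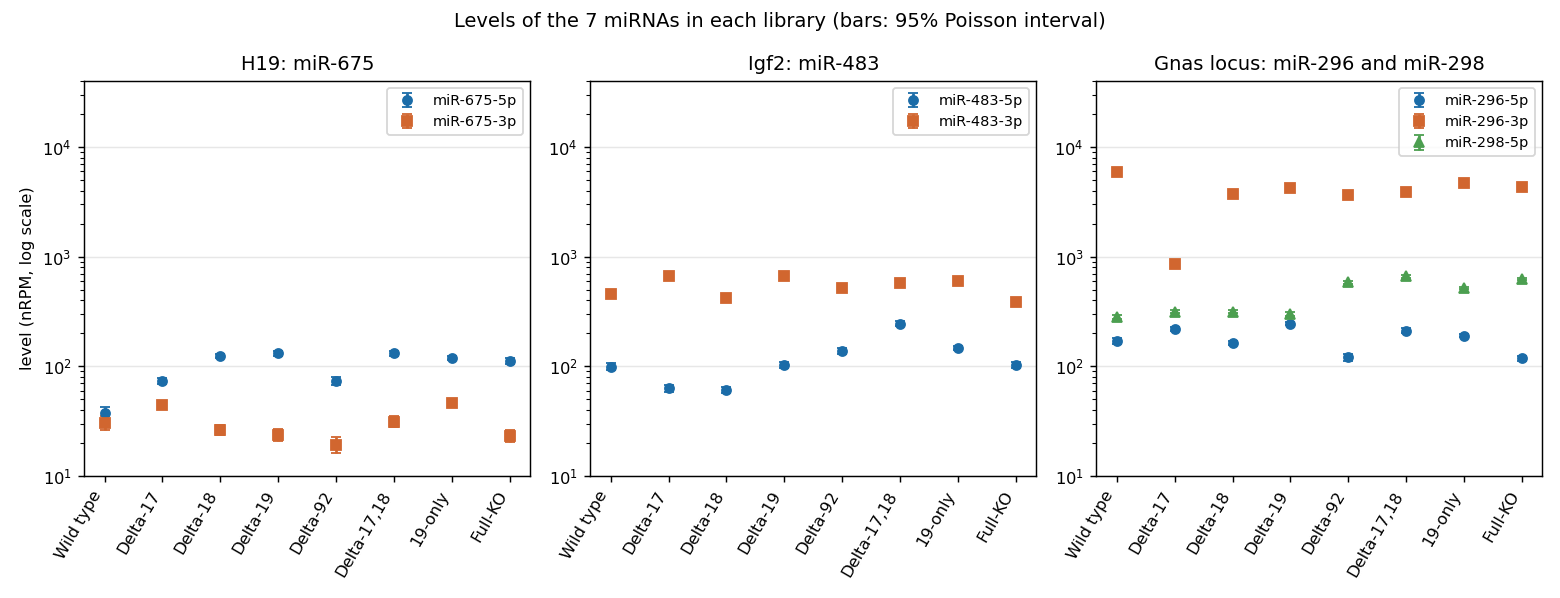
Level of each miRNA (nRPM, log scale) in the 8 libraries, in 1 panel per locus, drawn without means because each genotype had 1 library. Bars are exact 95% Poisson intervals and are often smaller than the marker. miR-675-5p is lowest in wild type (37.6 nRPM), miR-296-3p is lowest in Delta-17 (851 nRPM), and miR-298-5p stands between 282 and 315 nRPM in 4 libraries and between 517 and 661 nRPM in the other 4.

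At the H19 locus, miR-675-5p was lower in wild type than in any mutant. It stood at 37.6 nRPM (95% interval 33.0 to 42.6, 240 reads) in wild type, 73.2 in Delta-17 and 73.7 in Delta-92. In Delta-18 it stood at 125 nRPM, in Delta-19 at 132, in Delta-17,18 at 131.5, in 19-only at 119.7 and in Full-KO at 112. The 5 upper libraries lay within 1.17-fold of each other, with overlapping intervals between each neighbouring pair in order of level, and the intervals of Delta-17 and Delta-92 also overlapped.

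Against wild type, miR-675-5p was 3.51-fold (3.05 to 4.04) higher in Delta-19, 3.50-fold in Delta-17,18, 3.32-fold in Delta-18, 3.19-fold in 19-only and 2.99-fold in Full-KO. The ratios in Delta-92 (1.96) and Delta-17 (1.95) fell just short of 2-fold. When each library was set against the median of the other 7, no mutant differed in miR-675-5p by 2-fold, with ratios from 0.611 in Delta-17 to 1.17 in Delta-19. Wild type stood at 0.314 of its own such median, where miR-675-5p was the 1 member of 7 that was 2-fold lower, beside 5.2% of the 538 miRNAs outside the cluster with a mean of at least 10 nRPM (the background set for all counts). The high ratios of the mutants thus share 1 low wild-type value. This change of reference turned the direction in 3 of the 7 mutants, from 1.95 to 0.611 in Delta-17, from 1.96 to 0.615 in Delta-92 and from 2.99 to 0.939 in Full-KO. Of the background set, 13.9% had their lowest level in wild type.

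The low value was on 1 arm. miR-675-3p stood at 30.5 nRPM in wild type, 44.6 in Delta-17, 26.3 in Delta-18, 23.7 in Delta-19 and 19.3 in Delta-92. It stood at 31.4 nRPM in Delta-17,18, 45.9 in 19-only and 23.3 in Full-KO. Wild type was thus in the middle of the order for this arm, and 6 of the 7 neighbouring pairs of libraries had overlapping intervals. The 5p arm made up 55.2% (exact binomial interval 50.4 to 59.9) of miR-675 reads in wild type, 62.1% in Delta-17, 72.3% in 19-only and between 79.2% and 84.8% in the other 5 libraries.

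miR-122-5p, the marker of liver and visceral endoderm, was also lowest in wild type (69.3 nRPM). It stood at 71.0 in Delta-17, 76.7 in Full-KO and between 167 and 271 nRPM in the other 5 libraries, and its partner miR-122-3p had 0 reads in wild type, which allows up to 0.470 nRPM (3 reads), and in Delta-19, which allows up to 0.315. Of the 8 muscle arms averaging 10 nRPM or more, 3 were lowest in wild type (miR-208a-3p, miR-499-5p and miR-133b-3p), while the sum of the list was lowest in Delta-17 (2345 nRPM, against 3155 in wild type). The part of these cell types in the levels of miR-675-5p was not tested.

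At the Igf2 locus, miR-483-3p, a miRNA known for pro-survival effects in tumours, was the steadiest member. It stood at 453 nRPM in wild type, 667.004 in Delta-17, 419.7 in Delta-18, 674 in Delta-19 and 516 in Delta-92. In Delta-17,18 it stood at 576 nRPM, in 19-only at 601 and in Full-KO at 384. Its highest library was 1.75-fold above its lowest, a smaller range than in all but 14.1% of the miRNAs outside the cluster.

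miR-483-5p ranged more widely, over 4.04-fold. It stood at 99.6 nRPM in wild type, 63.2 in Delta-17, 60.9 in Delta-18, 103 in Delta-19 and 137 in Delta-92. In Delta-17,18 it stood at 246 nRPM, in 19-only at 147 and in Full-KO at 104. The single high library was Delta-17,18, at 2.47-fold (2.26 to 2.70) of wild type and 2.39-fold of the median of the other 7, while miR-483-3p stood at 1.27-fold of wild type there. Without Delta-17,18 the range of miR-483-5p was 2.42-fold. The muscle list had its highest sum in the same library, at 6181 nRPM, as did endothelial miR-126, at 17549 nRPM against 7367 to 16200 elsewhere. Single arms differed: miR-126-3p was highest there (14893 nRPM), but miR-126-5p stood at 2656 nRPM, against 2672 in wild type and 4761 in Delta-92. In the muscle list, miR-1a-3p, miR-133a-3p, miR-208a-3p and miR-499-5p were highest in Delta-17,18, while miR-133a-5p was lowest there (41.9 nRPM). The part of either cell type in the level of miR-483-5p was not tested.

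The opposite imprints of H19 and Igf2 invite a comparison of their miRNAs within each library, where no scaling between libraries enters. miR-675 reads made up 11.0% (exact binomial interval 10.01 to 11.98) of miR-675 and miR-483 reads together in wild type, 12.4% in Delta-92 and 13.9% in Delta-17. The share was 16.5% in Delta-17,18, 16.7% in Delta-19, 18.1% in 19-only, 21.8% in Full-KO and 23.9% in Delta-18. For each miR-675 read there were 8.12 miR-483 reads in wild type and 3.18 in Delta-18. The lowest shares were in the libraries with the lowest miR-675 sums, at 68.1 nRPM in wild type, 93.0 in Delta-92 and 118 in Delta-17. The highest shares were in those with the lowest miR-483 sums, Delta-18 (480.5 nRPM) and Full-KO (488 nRPM). These shares count mature reads with both arms summed, and neither the alleles nor the H19 and Igf2 transcripts were measured.

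At the Gnas locus, miR-296-3p stood apart in a single library. It stood at 5898 nRPM in wild type, 3738 in Delta-18, 4191 in Delta-19, 3672 in Delta-92 and 3888 in Delta-17,18. In 19-only it stood at 4672 nRPM, in Full-KO at 4286, and in Delta-17 at 851 (836 to 867, 11496 reads). Without Delta-17 its libraries lay within 1.61-fold of each other, and with it they spanned 6.93-fold, a wider range than in 92.4% of the miRNAs outside the cluster, of which 11.2% had their lowest level in Delta-17.

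In Delta-17 the ratio of miR-296-3p to wild type was 0.144 (0.141 to 0.147), and to the median of the other 7 libraries 0.203. Only 2 of the 538 miRNAs outside the cluster had a lower ratio to wild type in that library. These were miR-376c-5p, with 89 reads in wild type and 6 in Delta-17, and miR-376b-5p, with 222 and 22 reads, which are named because they alone fell below miR-296-3p. The other 3 libraries that lack the miR-17 family held miR-296-3p at 0.659 to 0.792 of wild type, so the low level was not shared among them. The miR-17 family deletion of this genotype and any feature of its single library cannot be told apart.

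The partner arm did not fall with it. miR-296-5p stood at 171 nRPM in wild type, 220.0 in Delta-17, 164 in Delta-18, 246 in Delta-19 and 121 in Delta-92. In Delta-17,18 it stood at 212 nRPM, in 19-only at 191 and in Full-KO at 118. In Delta-17 it was thus the second highest of the 8 libraries, at 1.29-fold (1.199 to 1.379) of wild type.

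miR-298-5p, which lies next to miR-296, had another order of libraries. Its highest library was 2.35-fold above its lowest, a wider range than in 41.8% of the miRNAs outside the cluster, whose median was 2.56-fold. It stood at 282 nRPM in wild type, 315 in Delta-17, 315 in Delta-18 and 302 in Delta-19, with overlapping intervals between neighbours in order of level. It stood at 583 nRPM in Delta-92, 661 in Delta-17,18, 517 in 19-only and 627 in Full-KO. No library lay between 315 and 517 nRPM, and no deletion of a single family set the upper libraries apart, since Delta-17 and Delta-18 were low and Delta-17,18 was high.

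The summed muscle list was also higher in these 4 libraries, with 5297 nRPM in Delta-92, 6181 in Delta-17,18 and 4845 in 19-only and 3473 in Full-KO, against 2345 to 3247 in the 4 libraries where miR-298-5p was low. Most of this sum was miR-1a-3p, and the next arm, miR-133a-3p, did not divide the libraries so, with 385 nRPM in Delta-92 and 312 in Full-KO against 427 in wild type and 431.2 in Delta-17. The part of muscle cells in the level of miR-298-5p was not tested.

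The ratio of miR-298-5p to wild type was 2.35 (2.22 to 2.47) in Delta-17,18, 2.23 in Full-KO, 2.07 in Delta-92 and 1.83 in 19-only. Scaling to reads outside the cluster brought the ratio in Full-KO to 1.87, and TMM brought that in Delta-92 to 1.95. The other arm of this hairpin, miR-298-3p, is no member. It stood at 73.6 nRPM in wild type, 56.9 in Delta-17, 39.8 in Delta-18 and 61.8 in Delta-19, and between 31.2 and 43.0 nRPM in the 4 libraries where miR-298-5p was high, so that the groups overlapped through Delta-18. The sum of both miR-296 arms and miR-298-5p was mostly miR-296-3p (61.4% in Delta-17, 81.7% to 92.9% in the other libraries), so a sum over the locus hides the course of miR-298-5p.

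**Figure D2:**
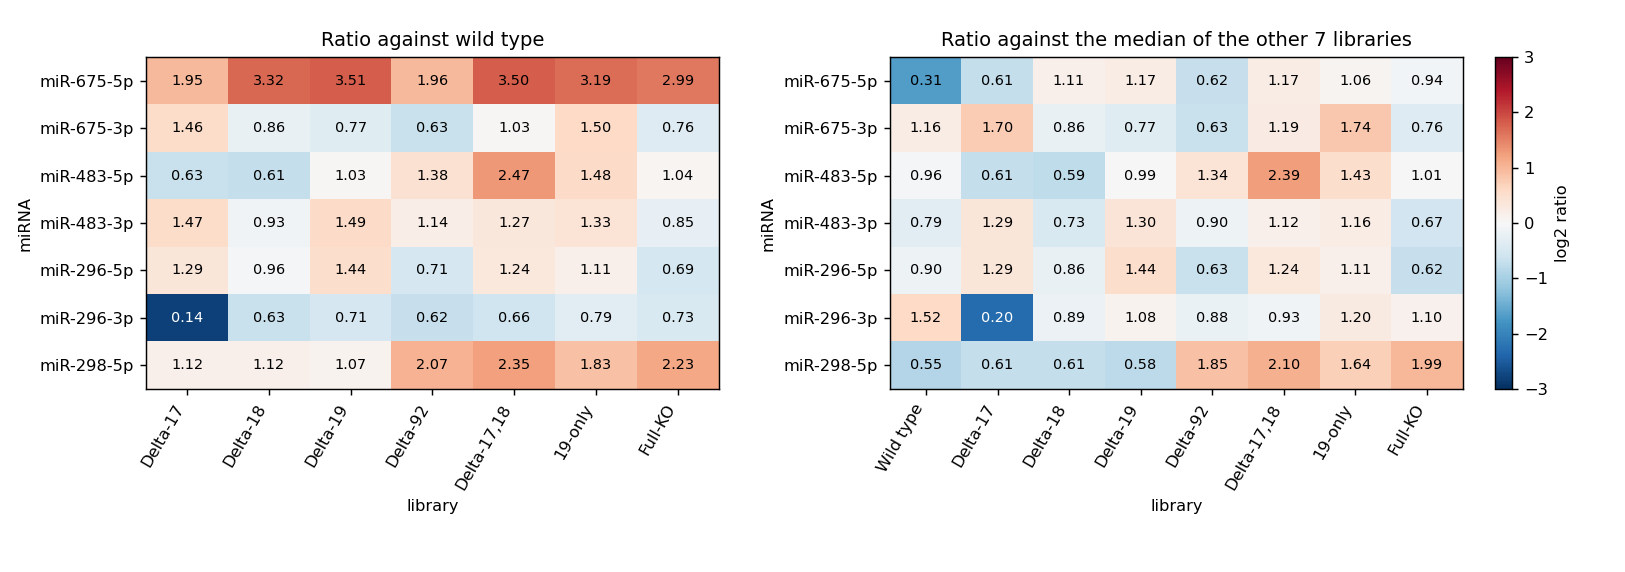
Ratio of each miRNA in each library to wild type (left) and to the median of the other 7 libraries (right), printed in each cell and coloured by log2 ratio. The row of miR-675-5p is above 1 in all 7 mutants on the left. On the right this row is lowest in wild type (0.31), and Delta-17 (0.61), Delta-92 (0.62) and Full-KO (0.94) are also below 1. In Delta-17, miR-296-3p (0.14 and 0.20), and in Delta-17,18, miR-483-5p (2.47 and 2.39) and miR-298-5p (2.35 and 2.10) pass 2-fold on both sides.

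Read arm by arm, all 4 hairpins changed the balance of their arms between libraries. The 5p arm of miR-296 made up 20.5% (exact binomial interval 19.9 to 21.2) of its reads in Delta-17 and between 2.68% and 5.54% in the other 7 libraries. There were 3.87 reads of miR-296-3p for each of miR-296-5p in Delta-17 and 36.3 in Full-KO. The 5p arm of miR-483 made up 8.65% in Delta-17, 12.7% in Delta-18, 13.2% in Delta-19 and 18.0% in wild type. Its share was 19.7% in 19-only, 21.0% in Delta-92, 21.3% in Full-KO and 29.9% in Delta-17,18. The 5p arm of miR-298 rose from 79.3% in wild type through 83.0% in Delta-19, 84.7% in Delta-17 and 88.8% in Delta-18 to between 92.5% and 94.9% in the other 4.

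The major arm stayed the same in all 8 libraries: 5p in miR-675 and miR-298, 3p in miR-483 and miR-296. In wild type the 5p arm was at its lowest share in both miR-675 and miR-298. In Delta-17 the 5p share was lowest in miR-483, second lowest in miR-675 and highest in miR-296, so the arms of different hairpins did not move to the same side.

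**Figure D3:**
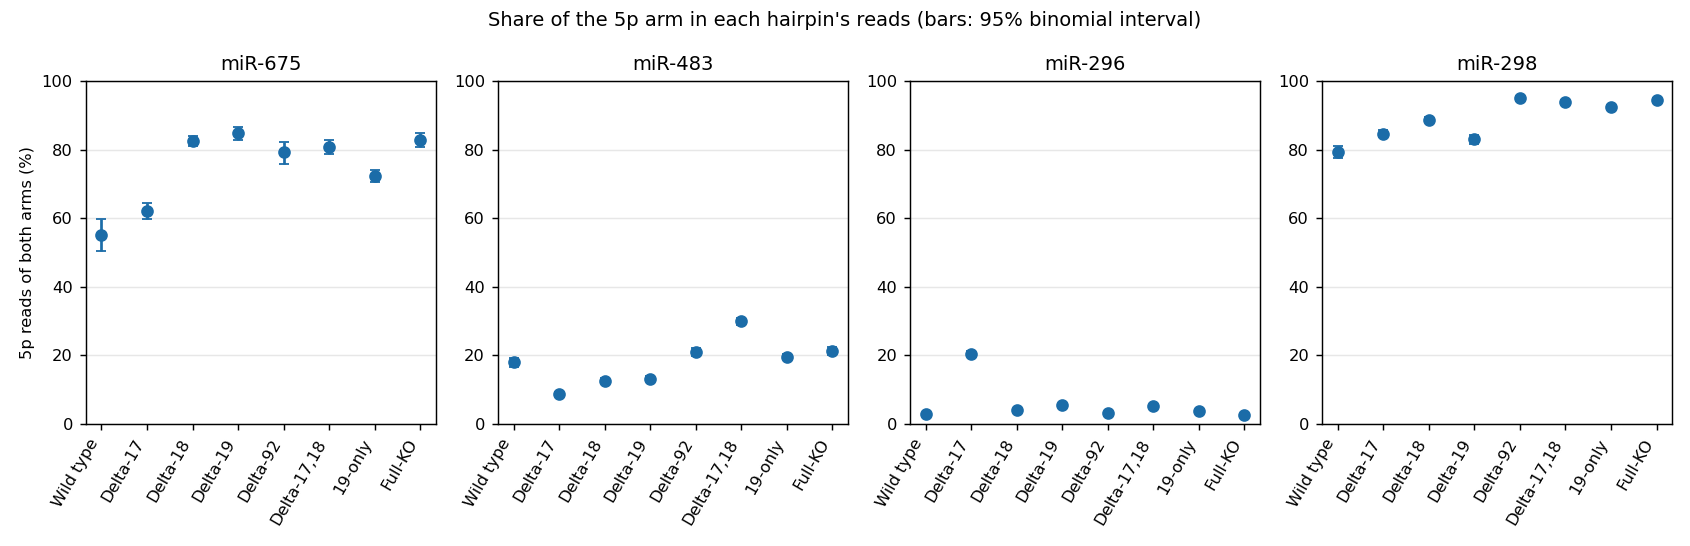
Share of 5p reads in the reads of both arms (%) for the 4 hairpins in each library, with exact 95% binomial intervals; the miR-298 panel uses miR-298-3p, which is not among the 7. miR-296 stands at 20.5% in Delta-17 and at 5.54% or less elsewhere, and miR-675 rises from 55.2% in wild type to 84.8% in Delta-19.

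Such shifts were common in these libraries. The ratio of 5p to 3p reads spanned 9.38-fold over the 8 libraries in miR-296, 4.89-fold in miR-298, 4.52-fold in miR-675 and 4.51-fold in miR-483. Over 168 hairpins outside the cluster with both arms at 10 nRPM or more, the median was 4.13-fold, and 23 hairpins spanned more than miR-296. Not all 168 are independent: miR-486 and miR-3107 had the same spread, as did miR-299 and miR-299b. In Delta-17, 13 of the 168 hairpins had an arm ratio 4-fold or more from the median of the other 7 libraries, against 3 to 5 hairpins in each of the other libraries. Of the members' hairpins only miR-296 was among these 13, at a log2 difference of 2.66.

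**Figure D4:**
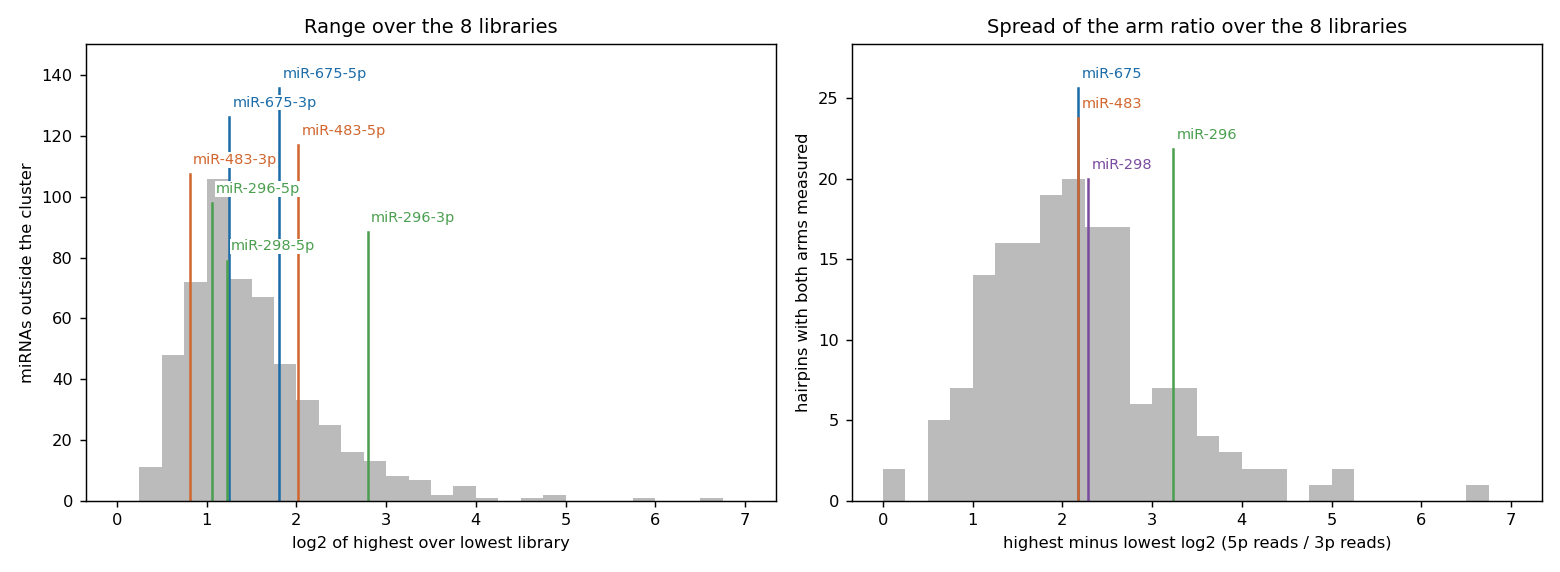
Left, log2 of the highest over the lowest library for 537 miRNAs outside the cluster (grey bars; 1 more had 0 reads in a library), with the 7 miRNAs as lines coloured by locus. Right, spread of the log2 ratio of 5p to 3p reads for 168 hairpins, with the 4 hairpins as lines; miR-483-3p lies toward the narrow end on the left, miR-296-3p and the miR-296 hairpin toward the wide end of each panel.

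By a fixed size of 2-fold against wild type, 9 of the 49 pairs of a member and a mutant were higher and 1 was lower. Over all miRNAs outside the cluster, 8.82% of such pairs were higher and 9.13% lower. Of the 9 higher pairs, 5 were miR-675-5p, 3 were miR-298-5p and 1 was miR-483-5p, so the count repeats the values above rather than adding to them. Against the median of the other 7 libraries, 2 of the 49 pairs were higher (miR-483-5p and miR-298-5p, both in Delta-17,18), beside 4.2% of pairs outside the cluster, and 1 was lower (miR-296-3p in Delta-17), beside 5.39%.

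By mutant, 3 of the 7 members were 2-fold higher in Delta-17,18 (miR-675-5p, miR-483-5p and miR-298-5p), beside 12.3% of the miRNAs outside the cluster. In Full-KO 2 were higher (miR-675-5p and miR-298-5p), beside 8.92%. Only miR-675-5p was higher in Delta-18 (beside 8.92%), Delta-19 (5.58%) and 19-only (11.9%), and only miR-298-5p in Delta-92 (8.92%). In Delta-17, 0 of 7 were higher, beside 5.2%, and 1 was lower, miR-296-3p, beside 6.88%. In the other 6 mutants 0 of 7 members were 2-fold lower, beside 8.18% in Delta-18, 9.67% in Delta-19, 8.18% in Delta-92, 12.1% in Delta-17,18, 9.11% in 19-only and 9.85% in Full-KO.

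The median log2 ratio of the 7 members to wild type was 0.36 in Delta-17, -0.11 in Delta-18, 0.10 in Delta-19 and 0.19 in Delta-92. It was 0.35 in Delta-17,18, 0.57 in 19-only and -0.24 in Full-KO. The medians of the 538 miRNAs outside the cluster lay between -0.02 and 0.04. Of the 7 members, 6 stood above wild type in Delta-17,18 and in 19-only, 5 in Delta-17 and in Delta-19, 4 in Delta-92, 3 in Full-KO and 2 in Delta-18, so no mutant had all 7 on 1 side. miR-675-5p and miR-298-5p, both lowest in wild type, are in each of these counts. The share of the background set above wild type is not given here, so the counts are a description only.

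The design also allows libraries that lack a family to be set beside those that keep it. For none of the 4 families did any of the 7 members have all libraries lacking it on 1 side of all libraries keeping it. Over the miRNAs outside the cluster, libraries lacking miR-17 were all above the others in 1.12% and all below in 1.3%. These shares were 1.86% and 3.35% for miR-18, 4.28% and 3.9% for miR-19, and 0.743% and 1.3% for miR-92.

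miR-675-5p missed such a split for miR-18 through Delta-19 alone. It stood at 122.1 ± 8.03 nRPM (SD, n = 4) in the libraries lacking miR-18, between 112 and 131.5, and at 79.0 ± 39.0 nRPM (SD, n = 4) in those keeping it, where Delta-19 at 132 overlapped. miR-298-5p stood at 576 ± 55.7 nRPM (SD, n = 3) in the libraries lacking miR-92 and at 374.7 ± 160.5 nRPM (SD, n = 5) in those keeping it, where Delta-17,18 lay above all 3. Other members also missed a split through a single library, such as miR-296-5p for miR-92 through 19-only and miR-675-3p for miR-17 through Full-KO. The share of the background set that missed a split in this way is not given here, so these cases are a description only. Each SD is over single libraries of different genotypes, not over replicates. Libraries that lack a family differ in other families too, so a family's loss and the rest of the genotype cannot be told apart.

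miRNAs of other imprinted loci were set beside the members by the same rule of size. At the Mest locus, imprinted and paternally expressed, the arms of miR-335 had opposite extremes. miR-335-3p was highest in wild type (16971 nRPM) and lowest in Delta-17,18 (4540.2 nRPM), and miR-335-5p was lowest in wild type (3504 nRPM) and highest in Delta-17,18 (8428 nRPM). Not every library followed this. In Full-KO both stood above their medians, miR-335-3p at 11830 against 9291 nRPM and miR-335-5p at 7342 against 5724 nRPM. In the Dlk1-Dio3 region, the largest imprinted miRNA group, 93 of 102 rows averaged 10 nRPM or more. In a mutant, between 2 and 9 of the 93 were 2-fold higher, beside 5.2% to 12.3% of the background set. Between 5 and 17 were lower, beside 6.88% to 12.1%, and the 17 were in Delta-17,18 (beside 12.1%). Their median log2 ratio lay between -0.19 and 0.06. The sum over the region stayed between 145107 nRPM in Delta-17,18 and 188265 nRPM in Full-KO. Its most abundant rows were miR-127-3p, at 16104 to 29411 nRPM, and miR-541-5p, at 17341 to 23641 nRPM. Of the Sfmbt2-type families, known from placenta, 19 of 62 rows averaged 10 nRPM or more, with a median log2 ratio between -0.63 in Delta-17,18 and 0.21 in Delta-18. The sum of this list was highest in wild type (1716 nRPM) and lowest in Delta-17,18 (913 nRPM), led by miR-669c-5p (189 to 839.9 nRPM) and miR-467c-5p (57.2 to 145 nRPM).

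To find the profiles most like those of the 3 loci, the summed arms of each locus were compared with 313 other miRNAs averaging 100 nRPM or more, by the root mean square difference of centred log2 profiles over the 8 libraries. Closest to miR-675 was miR-301b-3p (0.20, log2 units), which had its lowest level in wild type (667.7 nRPM), as the miR-675 sum did, and its highest in Delta-17,18 (1449 nRPM), where that sum stood at 163 nRPM against its highest of 166 in 19-only. Next came miR-34c-5p (0.28) and miR-26a-5p (0.29), both lowest in wild type. Closest to miR-483 were miR-667-3p (0.17) and miR-412-5p (0.18), both of the Dlk1-Dio3 list, and miR-760-3p (0.25). Closest to the miR-296 and miR-298 sum were miR-382-5p of Dlk1-Dio3 (0.33), miR-342-5p (0.34) and miR-363-5p (0.39), all lowest in Delta-17. Dlk1-Dio3 rows made up 93 of the 538 miRNAs of the background set, and their share among the 313 is not given here. The median difference over all 313 was 0.57, 0.49 and 0.75 for the 3 loci. With 8 points and the same libraries behind every profile, this is a ranking only.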

How the data were processed

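Small RNA libraries came from mouse embryos, with RNA extracted by Trizol per the labels' protocols. Per the submitters' processing notes, the authors used the build mm9, STAR 2.2.0 as aligner, featureCounts (Subread 1.4.2) and SAMtools 0.1.19. The handling of multi-mapping reads is not given. The deposited values are normalised signal, in 1046 rows for 977 accessions. All values were whole multiples of what 1 read was worth in their column (100% within 0.001 reads), which gave back whole reads. Of 57 accessions listed more than once, 8 whose rows differed by more than 10% kept separate rows and the others their higher row. Rows of different accessions were not merged, so some miRNAs of the background set carry the same values, such as miR-297a-3p, miR-297b-3p and miR-297c-3p. Deposited values were multiplied by 0.1159 to give nRPM. Python 3.11.15, scipy 1.17.1, edgeR 4.0.16 (TMM) and DESeq2 1.42.0 (size factors) were used.

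Poisson, binomial and conditional (Clopper-Pearson) intervals were exact, at 95%. With 1 library per genotype no p-value was given, and differences were called by size (2-fold). The calls and intervals were tested on simulated data. Alternatives were 4 scalings, 2 pseudocounts, other minimum levels, another reference and libraries left out. The members and all lists were chosen with earlier results of these data known. Named miRNAs were the members, the 3 nearest profiles per locus and the 2 most abundant of each imprinted list, and others where stated. The library of undetermined reads entered no comparison.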

Additional observations from a re-analysis of the deposited data

Results flagged for a closer look

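The library of reads that could not be assigned to a genotype held all 7 miRNAs, above the 1.05 nRPM that 3 reads would give there. It had 3025765 reads and entered no comparison. miR-675-5p stood at 100.6 nRPM, miR-675-3p at 33.8, miR-483-5p at 152 and miR-483-3p at 544.01. miR-296-5p stood at 259 nRPM, miR-296-3p at 4033 and miR-298-5p at 299.3. miR-296-5p lay above all 8 genotype libraries, and the other 6 within their range. No genotype had the 4 samples that a search for outlying replicates needs.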

How the results depend on the processing

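No paired analysis was possible because each genotype had 1 library. The 9 higher pairs of a member and a mutant numbered 12 with plain totals and 9 under the other 3 scalings, both pseudocounts and both minimum levels, but 2 against the median of the other 7 libraries. The 9 were not the same pairs throughout: totals outside the cluster brought in miR-675-5p in Delta-92 (2.02) and lost miR-298-5p in Full-KO (1.87), and TMM brought in miR-675-5p in Delta-17 (2.01) and lost miR-298-5p in Delta-92 (1.95). The median of the other 7 turned miR-675-5p in Full-KO from 2.99 to 0.939. It also took pairs short of 2-fold to the other side of 1, among them miR-675-5p in Delta-17 (0.611) and Delta-92 (0.615), and miR-298-5p in Delta-17 (0.609), Delta-18 (0.609) and Delta-19 (0.584). Leaving out a mutant gave between 6 and 9 higher pairs and between 0 and 1 lower, with 0 without Delta-17. No single family separated any member under the 5 scalings. Plain totals moved the median log2 ratio of the background to between -0.08 and 0.39. They brought miR-675-5p in Delta-17 (2.25) and Delta-92 (2.31) and miR-298-5p in 19-only (2.38) past 2-fold.

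The range over libraries of the summed arms was 2.43-fold for miR-675, 1.71-fold for miR-483 and 4.58-fold for miR-296 with miR-298-5p. Plain totals gave 3.15, 2.10 and 4.35. Totals outside the cluster gave 1.94 for miR-483, TMM 1.64 for miR-483 and 4.45 for the Gnas locus, and median-ratio factors 4.49 for the Gnas locus. The more abundant arm alone gave 3.51 for miR-675 and 6.93 for the Gnas locus. With 1 library left out, the ranges lay between 1.78 (without wild type) and 2.43, between 1.62 and 1.71, and between 1.51 (without Delta-17) and 4.58. The alternative on rows listed more than once was not run, because each member had 1 row. Libraries left out other than wild type and Full-KO were chosen after seeing the data. Other causes of these moves were not tested. The lowest count of a member in a genotype library was 135 reads, of miR-675-3p in Delta-92.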
